A study of Rattus norvegicus with 4 samples.

Results

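Neural stem cells from the hippocampus and from the olfactory bulb of the Fisher 344 rat were compared with the neurons derived from them, and the question here is which genes changed by a different amount in the 2 lineages. The quantity described here is the difference of the 2 changes: the log2 change from stem cell to neuron in the olfactory bulb lineage minus the same change in the hippocampal lineage. A positive value means that the olfactory bulb lineage gained more, or lost less, than the hippocampal lineage. Probes entered when they were well above background, by the scanner software's own flag, on all 4 arrays. This left 22990 of 40758 probes, and 5495 of 8927 genes that could be named.

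The 4 groups were hippocampal stem cells (HPC NSC), olfactory bulb stem cells (OB NSC), neurons derived from the former (HPC neu) and neurons derived from the latter (OB Neu). Per the labels, RNA of 3 independent experiments was mixed within each group and hybridised to 1 array, so no spread between cultures is known and nothing below could be tested. The labels used here give neither the age of the animals nor the way in which neurons were obtained, and the series title speaks of adult tissue. The stem cell arrays shared 1 slide, and the neuron arrays shared another. The difference of changes equals the source difference on the neuron slide minus the source difference on the stem cell slide, so a slide effect shared by both arrays of a slide, and additive on the log2 scale, cancels out of it.

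In the adult rodent brain, stem cells of the hippocampal dentate gyrus give rise to granule neurons, and stem cells of the subventricular zone send neuroblasts to the olfactory bulb, where they become interneurons. Neuroblasts carry doublecortin and RNA-binding proteins of the Elav family, and bulb interneurons depend on Dlx transcription factors. The olfactory bulb also holds ensheathing glia, which wrap olfactory axons and share many genes with Schwann cells.

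Levels are log2 signals minus the array's 75th percentile, so 0 is the brightness of the 75th percentile probe, and a level serves only to compare arrays for the same gene. The 4 levels of a gene are given in the order HPC NSC, OB NSC, HPC neu, OB Neu throughout. Over all 5495 genes the median difference of changes was 0.34 log2 units rather than 0, with the 5th percentile at -1.23 and the 95th at 1.52, and 3907 genes (71.1%) lay above 0. The median source difference, olfactory bulb minus hippocampus, was -0.45 in stem cells and -0.05 in neurons. Each value below is best read against 0.34. This offset depends on the scaling: it was 0.16 after quantile normalization and -0.80 when arrays were scaled on spiked-in control RNA.

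A threshold of 2 log2 units (4-fold) was used for calls. At that threshold 140 genes (2.55%) were higher, that is 2 or more, and 87 (1.58%) were lower, that is -2 or less. Together they made up 227 genes (4.13%), of which 61.7% were higher. That split was 56.7% after quantile normalization, 53.2% after cyclic loess, 56.9% after median scaling, 39.4% after subtracting the median of all genes, and 6.29% after spike-in scaling. Higher genes that pass 2 by less than 0.34 drop below it once that median is subtracted. At 1 log2 unit 758 genes (13.8%) were higher and 372 (6.77%) were lower. For scale, spots of the same probe, printed repeatedly on each array, gave the difference of changes a median SD of 0.16 for a single spot, which is the noise of spots and not of cultures. Among 1179 genes with 2 or more probes the median SD between probes was 0.123.

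**Figure D1:**
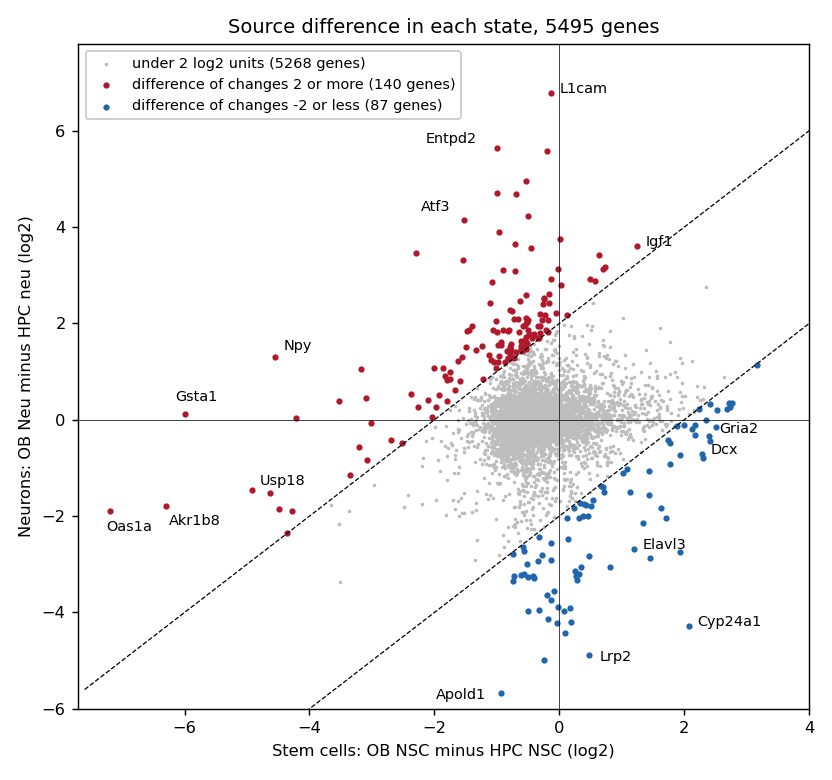
Each point is 1 of 5495 genes; the horizontal axis gives the source difference in stem cells and the vertical axis that in neurons, both as olfactory bulb minus hippocampus in log2 units, with 1 array per group. The dashed lines mark a difference of changes of 2 and -2; 140 genes lie above the upper line and 87 below the lower one, most of them within 1 log2 unit of the vertical axis.

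In most called genes the sources differed mainly after differentiation. Of the 140 higher genes, 85 had a source difference of 1 log2 unit or more in neurons only, 23 in stem cells only, 23 in both states with opposite signs, and 9 in both states with the same sign. Of the 87 lower genes, 52 differed in neurons only, 22 in stem cells only, 12 with opposite signs and 1 with the same sign. Seen as changes, 62 of the 140 higher genes were higher in neurons by 1 or more in both lineages, and in 56 only the olfactory bulb change passed 1. Among the 87 lower genes, 31 passed 1 in the olfactory bulb lineage only, and 26 were lower in neurons by 1 or more in both lineages.

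Of the 20 genes with the most positive values, 11 had a source difference of 1 or more in neurons only. L1cam, a cell adhesion molecule of axons and of Schwann and ensheathing cells, stood at -4.66, -4.80, -4.43 and 2.35, a difference of changes of 6.92. Only OB Neu was high, and the other 3 arrays lay close together. Their signals were low, at 19.2, 29.3 and 37.5 intensity units on HPC NSC, OB NSC and HPC neu. The highest signals there not marked well above background were 18.2, 22.3 and 23.5. Entpd2, an ectonucleotidase that breaks down extracellular ATP, stood at -2.0, -2.99, -1.14 and 4.49, a difference of 6.62.

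Several of these genes encode receptors or secreted signals of glia and neurons. Ngfr, the low-affinity neurotrophin receptor p75, stood at -1.53, -2.08, -0.66 and 4.29, a difference of 5.49. Gfra3, the co-receptor for artemin, stood at -3.27, -4.27, -2.74 and 1.97, a difference of 5.71. For both genes OB Neu lay far above the 3 other arrays. Npy, the gene of neuropeptide Y, had another course, at 3.25, -1.30, 4.87 and 6.18. OB NSC alone was low, and the difference of 5.86 combined a lower olfactory bulb level in stem cells with a higher one in neurons. Rxrg, a retinoid X receptor, stood at -4.11, -4.31, -2.16 and 3.41, a difference of 5.77. Tppp3, which binds tubulin, reached 5.75, and Hsd11b2, which inactivates glucocorticoids, reached 4.87.

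Several of these genes belong to a list typical of Schwann cells and ensheathing glia, of which 20 of 28 were measured on all 4 arrays. Their median was 1.11, against 0.34 over all genes. In it 5 genes were at 2 or more (L1cam, Npy, Gfra3, Ngfr and Gfra2, a co-receptor for neurturin, at 2.08) and 0 at -2 or less, and 11 were at 1 or more. The list is not uniform, however. Sox10, the transcription factor that defines this glial lineage, lay at 0.68, and Erbb3, the neuregulin receptor, at 0.67. Sox10 stood at 7.22, 6.47, 4.30 and 4.23, so both neuron arrays were below both stem cell arrays. The summed signal of the 22 list members present on the array had log2 levels of 8.23, 7.66, 7.50 and 8.26. In RNA from mixed cells, a larger share of a cell type and more RNA per cell cannot be told apart, and the part of ensheathing cells in these values was not tested.

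Other glial and perivascular lists were mixed. Tf, the gene of the iron carrier transferrin, which oligodendrocytes also make, stood at -2.08, -2.80, 0.43 and 4.08, a difference of 4.36. Cspg4, the NG2 proteoglycan of oligodendrocyte precursors and pericytes, stood at -1.82, -2.82, 3.23 and 5.05, a difference of 2.82. Both neuron arrays were high for Cspg4, OB Neu more so. The pericyte, fibroblast and smooth muscle list (8 of 28 measured) had a median of -0.18, below that of all genes, with 2 at 2 or more and 0 at -2 or less. Its median changed side under a stricter filter on dim probes. Des, a muscle filament, lay at -0.58 and Col1a2, a collagen chain, at -0.52. Bcas1, a gene of newly forming oligodendrocytes, went the other way at 4.43, 4.78, 1.69 and -1.37, a difference of -3.42. Of the oligodendrocyte and myelin list 11 of 26 genes were measured, with a median of 0.82, 2 at 2 or more and 1 at -2 or less. Mbp, the gene of myelin basic protein, lay at -0.94. The astrocyte list (16 of 27 measured) had a median of 0.41 with 2 at 2 or more, Ntsr2, a neurotensin receptor of astrocytes, at 2.21 and Timp3, an inhibitor of matrix proteases, at 2.01. Both were below 2 after normexp correction, at 1.69 and 1.86.

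**Figure D2:**
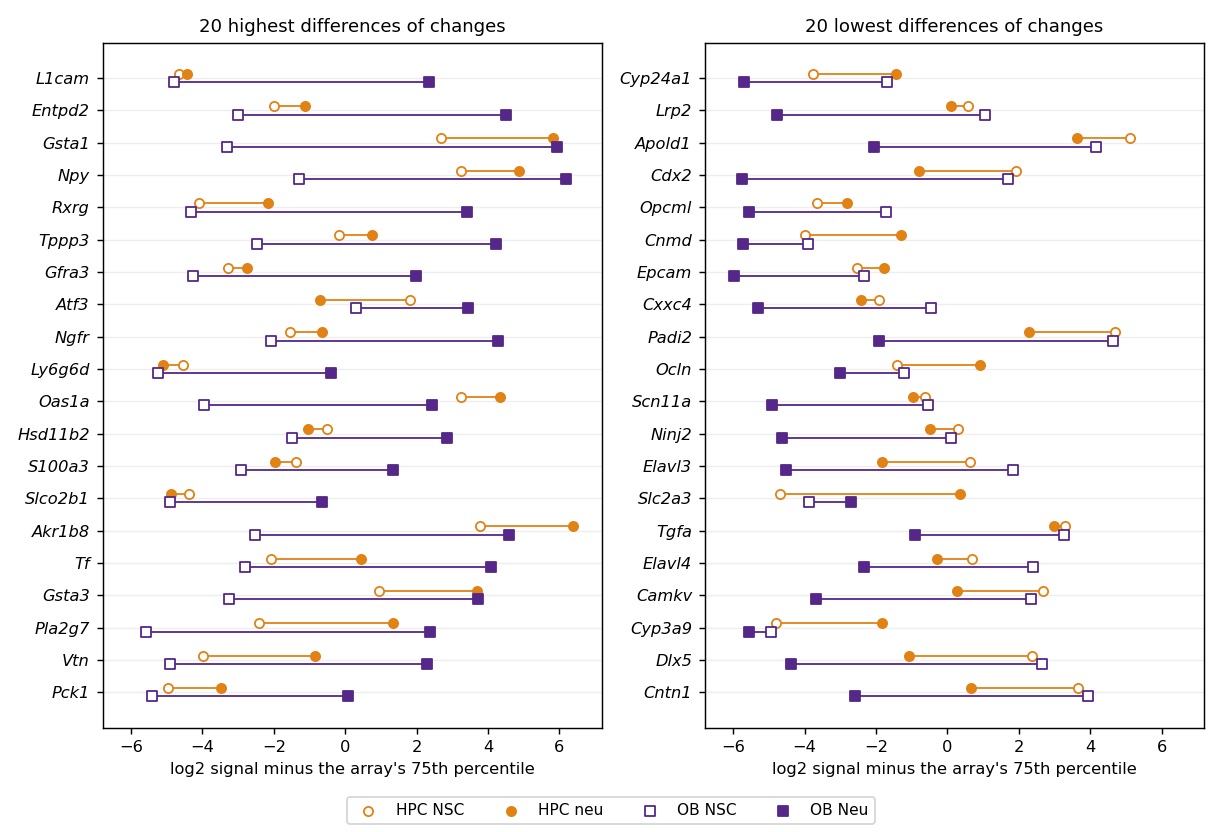
Levels of the 20 genes with the highest (left) and the 20 with the lowest (right) difference of changes, as log2 signal minus the array's 75th percentile, on the 4 arrays; open symbols are stem cells, filled symbols neurons, circles hippocampus and squares olfactory bulb, and each line joins the 2 states of a source. The filled square (OB Neu) is the farthest out for most genes, while Gsta1, Gsta3, Npy, Akr1b8 and Oas1a have a low open square (OB NSC).

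A different shape was seen in genes that respond to interferons and oxidative stress. Oas1a, an antiviral enzyme that makes oligoadenylates on sensing double-stranded RNA, stood at 3.25, -3.94, 4.33 and 2.43. OB NSC alone was low, the hippocampal levels were high in both states, and the difference was 5.29. Usp18, which removes the ubiquitin-like protein ISG15, stood at -0.20, -5.11, 2.45 and 0.99, a difference of 3.46 that was 1.52 after normexp background correction. Oas1i, a close relative of Oas1a, stood at 0.73, -3.75, 1.80 and -0.05, a difference of 2.63.

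For these genes OB NSC was again the lowest array by far. Gbp2, an interferon-induced GTPase, reached 2.25, and Rsad2, the antiviral enzyme viperin, 2.01. Cxcl10, a chemokine that interferons induce, stood at 1.52, -3.11, 3.28 and 1.76, a difference of 3.11. Oas1a and Oas1i are similar in sequence, so a probe may bind the RNA of both.

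Of the interferon-induced list 22 of 42 genes were measured on all 4 arrays, with a median of 1.25 against 0.34 over all genes, 5 at 2 or more and 0 at -2 or less. Of these 5 genes Oas1a alone was past 2 after normexp correction, with Oas1i at 1.76, Gbp2 at 1.83 and Rsad2 at 0.52 beside Usp18. The median source difference over the list's measured members was -2.08 log2 units in stem cells and -1.07 in neurons, so both medians were lower in the olfactory bulb. The list held exceptions: Eif2ak2, the kinase PKR, lay at -1.48, and Ifit2, an inhibitor of translation, at -1.40. Irf7 and Irf9, transcription factors of the response, lay at 1.49 and 1.26.

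The stretch of 250 bases before the RefSeq start of each of 5 of these genes is printed to show the motif that the interferon-activated factor ISGF3 and the IRF proteins bind, searched on both strands as GAAA, any 2 bases and GAAA again. The letters come from RefSeq, build GRCr8, run 5′ to 3′ along the gene, and capitals mark the motif, which reads TTTC in place of GAAA where it lies on the opposite strand. The windows are Oas1a, chr12:41330216-41330465 (plus strand). Oas1i is at chr12:41284976-41285225 (plus strand), Gbp2 at chr2:234005477-234005726 (plus strand), Rsad2 at chr6:48788121-48788370 (minus strand) and Cxcl10 at chr14:15988816-15989065 (plus strand).
Oas1a: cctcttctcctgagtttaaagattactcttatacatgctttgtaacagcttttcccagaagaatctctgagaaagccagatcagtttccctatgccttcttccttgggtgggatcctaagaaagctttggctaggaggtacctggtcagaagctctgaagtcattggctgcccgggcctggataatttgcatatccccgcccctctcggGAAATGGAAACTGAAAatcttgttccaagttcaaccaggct
Oas1i: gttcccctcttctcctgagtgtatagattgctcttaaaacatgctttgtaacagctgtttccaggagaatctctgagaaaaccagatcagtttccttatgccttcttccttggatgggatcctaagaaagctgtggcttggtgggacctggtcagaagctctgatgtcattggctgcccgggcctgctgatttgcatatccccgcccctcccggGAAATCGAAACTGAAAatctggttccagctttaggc
Gbp2: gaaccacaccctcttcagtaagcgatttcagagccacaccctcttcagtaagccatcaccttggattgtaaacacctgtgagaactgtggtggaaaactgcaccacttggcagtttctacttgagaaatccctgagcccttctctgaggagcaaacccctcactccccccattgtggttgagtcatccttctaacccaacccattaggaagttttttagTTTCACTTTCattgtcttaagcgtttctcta
Rsad2: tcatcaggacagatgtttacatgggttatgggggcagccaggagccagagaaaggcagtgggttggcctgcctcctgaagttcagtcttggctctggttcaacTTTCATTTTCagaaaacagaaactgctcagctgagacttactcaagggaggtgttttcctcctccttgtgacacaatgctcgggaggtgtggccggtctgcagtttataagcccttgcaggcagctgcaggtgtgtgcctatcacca
Cxcl10: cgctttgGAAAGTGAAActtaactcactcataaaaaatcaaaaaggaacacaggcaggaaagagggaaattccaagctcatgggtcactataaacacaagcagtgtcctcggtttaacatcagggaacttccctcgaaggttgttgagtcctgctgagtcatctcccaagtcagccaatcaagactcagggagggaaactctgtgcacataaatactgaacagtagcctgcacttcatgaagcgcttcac

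In a window from 250 bases before to 50 bases after the start, the motif was present in 4 of 4 interferon-list genes past 2 that had a promoter entry (Oas1a, Oas1i, Gbp2 and Rsad2), and in Cxcl10. Over all 27457 promoters, 3.77% held it. In Oas1a and Oas1i 2 copies overlap in 1 run of capitals, whose first base lies 41 and 36 bases before the start. The copy in Gbp2 begins 31 bases before the start, that in Rsad2 147 and that in Cxcl10 243. Usp18 had no entry. A match is a run of letters, not a measured binding site. The motif was not counted in interferon-list genes that did not pass 2, so these counts cannot tie it to the difference of changes. Among the 20 leading higher genes 14 had an entry and 1 held the motif, and among the 20 leading lower genes 15 had an entry and 0 held it.

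Several genes of the antioxidant response controlled by the factor Nrf2 were also low on the OB NSC array. Gsta1, a glutathione transferase, stood at 2.68, -3.32, 5.82 and 5.94, a difference of 6.12. The neuron arrays were nearly level, and the source difference lay in the stem cells. Gsta3, of the same family, stood at 0.95, -3.27, 3.69 and 3.73, a difference of 4.26. Akr1b8, an aldo-keto reductase, stood at 3.76, -2.54, 6.38 and 4.60, a difference of 4.52.

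OB NSC was the lowest array for all 3. Nqo1, a quinone reductase, shared that course at 0.88, -3.41, 2.25 and 0.35, with a difference of 2.40 that was 1.46 after normexp correction. Hmox1, which degrades haem, stood at 2.59, 0.73, 2.49 and 3.55, a difference of 2.94, with a far smaller gap in stem cells. Of this list 23 of 30 genes were measured, with a median of 0.85, 5 at 2 or more, 0 at -2 or less and 10 at 1 or more. Its median source difference was -0.80 in stem cells and -0.02 in neurons. Gclc, which catalyses the first step of glutathione synthesis, lay at -0.54, and Txnrd1, thioredoxin reductase, at 0.22. The short core TGANNNNGC, which Nrf2 binds, was found on either strand in 4 of 4 of these promoters with an entry (Gsta1, Gsta3, Akr1b8 and Nqo1), but also in 40.4% of all promoters.

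Stress and immediate early genes were mixed. Atf3, a transcription factor induced by injury and stress, stood at 1.82, 0.30, -0.71 and 3.45, a difference of 5.68. It was lower in neurons than in stem cells in the hippocampal lineage and higher in the olfactory bulb lineage. Klf4, a zinc finger factor, reached 2.27 and Fosl1, a partner of Jun, 2.20, which were 1.87 and 0.46 after normexp correction. Egr1, an immediate early gene, lay at -1.34. Of that list 22 of 27 genes were measured, with a median of 0.10, 3 at 2 or more and 0 at -2 or less. Ndrg1, a gene that hypoxia induces, stood at 2.01, -0.00, 0.16 and 1.23, a difference of 3.08, and its 2 probes gave 2.28 and 3.08. Slc2a3, a glucose transporter of neurons, stood at -4.70, -3.88, 0.36 and -2.70, a difference of -3.87. Its HPC NSC signal was 18.8 intensity units, where the highest signal not marked well above background was 18.2. Ndrg1 and Slc2a3 are the highest and lowest members of the hypoxia and glycolysis list. Of that list 31 of 36 genes were measured, with a median of 0.36, 2 at 2 or more and 1 at -2 or less.

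Lists of microglia and chemokines also had medians above that of all genes. Ctss, a lysosomal protease of microglia, stood at -1.63, -4.72, -0.98 and -0.54, a difference of 3.54, and the OB NSC array alone was low. The microglia and macrophage list (9 of 24 measured) had a median of 1.16 with 1 gene at 2 or more, and P2ry12, a receptor of resting microglia, lay at 1.89. Its summed signal had log2 levels of 5.12, 4.81, 4.66 and 4.76 over 18 genes present on the array, of which 9, 9, 15 and 15 were well above background. The part of microglia in these values was not tested. Cxcl12, a chemokine that guides migrating cells, stood at -1.42, -1.95, 4.17 and 6.29, a difference of 2.65, and both neuron arrays were high. The chemokine and acute inflammation list (6 of 29 measured) had a median of 1.14, with 2 at 2 or more, Cxcl10 and Cxcl12, and 0 at -2 or less.

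Genes of retinoic acid signalling were spread over both directions. Besides Rxrg, the higher genes included enzymes that make retinoids: Aldh1a3, which makes retinoic acid, at 2.29, and Rdh10, which makes its precursor retinaldehyde, at 2.09. Cyp26b1, which breaks retinoic acid down, stood at 3.01, 3.40, -0.48 and -2.22, a difference of -2.13. Its relative Cyp26a1 lay at -1.68 and Dhrs3, which turns retinaldehyde back to retinol, at -1.75. Of this list 11 of 24 genes were measured, with a median of 0.99, 4 at 2 or more and 1 at -2 or less. After normexp correction Aldh1a3 and Rdh10 were below 2 and Cyp26b1 was above -2, while Rxrg was past 2 in every setting.

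Insulin and its relatives are the subject of the series title. Ins2 stood at -4.32, -5.13, -2.63 and -2.13, a difference of changes of 1.30, and Ins1 at -2.53, -2.33, -1.20 and -0.91, a difference of 0.09. Both genes were dimmer than the 75th percentile on all 4 arrays, and neither passed 2. The Ins2 signals on the HPC NSC and OB NSC arrays were 24.3 and 23.3 intensity units. The highest signals there not marked well above background were 18.2 and 22.3. Over the settings run, the difference ranged from 0.16 to 1.30 for Ins2 and from -1.06 to 0.30 for Ins1. Their near-identical sequences mean that a probe for one gene may bind the RNA of the other. The higher members of the insulin and IGF list were Igf1, insulin-like growth factor 1, at 0.69, 1.93, 1.76 and 5.36 with a difference of 2.36, and Igfbp2, an IGF-binding protein, at 0.01, -1.33, 4.12 and 5.56 with a difference of 2.78. OB Neu was the highest array for both, and for Igf1 the olfactory bulb was higher in both states.

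Averaging over its 4 probes took Igf1 below 2. Igf2 lay at 1.77, and Grb14 and Pik3r1, which bind the insulin receptor or its substrates, at -1.55 and -1.57. Of the list 18 of 27 genes were measured, with a median of 0.84, 2 at 2 or more and 0 at -2 or less. Among beta cell and neuroendocrine genes (13 of 35 measured, median 0.25), 1 gene was at 2 or more and 1 at -2 or less. Nkx6-1, a factor of beta cells and ventral neural progenitors, stood at 0.69, 0.29, -1.25 and -4.53, a difference of -2.87 that was -1.75 after normexp correction. Pax6, a factor of neural progenitors and of the endocrine pancreas, lay at -0.93.

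The most negative values came mainly from a low level on the OB Neu array. Cyp24a1, the enzyme that inactivates vitamin D, stood at -3.77, -1.70, -1.43 and -5.71. It was higher in the olfactory bulb among stem cells and lower there among neurons, and the difference was -6.35. Lrp2, the endocytic receptor megalin, stood at 0.58, 1.06, 0.11 and -4.78, a difference of -5.36, with OB Neu alone low.

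The leading lower genes included some known from epithelia. Cdx2, a transcription factor of intestinal epithelium, stood at 1.93, 1.69, -0.79 and -5.77, a difference of -4.74. Epcam, an epithelial adhesion molecule, stood at -2.53, -2.34, -1.79 and -5.99, a difference of -4.39. Ocln, the tight junction protein occludin, stood at -1.40, -1.22, 0.91 and -3.0, a difference of -4.09. For these 3 genes the sources were nearly level in stem cells and OB Neu was the lowest array. Apold1, an endothelial gene of the early response, stood at 5.12, 4.17, 3.62 and -2.06, a difference of -4.74, and Padi2, which converts arginine to citrulline in proteins, at 4.69, 4.64, 2.29 and -1.92, a difference of -4.17. Tgfa, a ligand of the EGF receptor, reached -3.86.

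Several of these genes had an OB Neu signal near the limit of detection, and normexp background correction moved their values most. Under it Cyp24a1 lay at -2.78, Cdx2 at -2.66, Opcml, a neural adhesion molecule, at -2.19, Cnmd, the cartilage protein chondromodulin, at -1.79 and Epcam at -1.78. The lowest signal marked well above background was 11.4, 13.4, 15.6 and 8.52 intensity units on the 4 arrays and the highest signal not so marked was 18.2, 22.3, 23.5 and 13.7, so the filter has no sharp edge. Of the 227 called genes 45 had an array below 2 times, and 88 below 4 times, the lowest signal well above background there.

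Some neuroblast and neuronal genes were also among the 87 lower genes. Elavl3, an RNA-binding protein of newborn neurons, stood at 0.64, 1.83, -1.83 and -4.51, a difference of -3.87, and its relative Elavl4 at 0.70, 2.40, -0.30 and -2.34, a difference of -3.75. For both, the olfactory bulb was above the hippocampus in stem cells and below it in neurons. Dlx5, a homeobox factor of bulb and other GABA neurons, stood at 2.38, 2.65, -1.08 and -4.40, a difference of -3.59. Here the sources were nearly level in stem cells. Dcx, the gene of doublecortin, stood at -2.15, 0.13, -1.91 and -2.62, a difference of -2.98, and OB NSC was the high array. Calb2, the gene of calretinin, a calcium-binding protein of bulb interneurons, stood at 5.26, 4.51, 1.85 and -0.94, a difference of -2.04 that was -1.86 after normexp correction. It belongs to a list of GABA and dopamine neuron genes that did not share its direction. Of that list 7 of 26 genes were measured, with a median of 0.52 against 0.34 over all genes. In it 2 genes were at 2 or more, Npy at 5.86 and Reln at 2.43, and 1, Calb2, was at -2 or less.

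Of the proneural and neuroblast list 12 of 40 genes were measured, with a median of -0.42 against 0.34 over all genes, 4 at -2 or less and 0 at 2 or more. Tubb3, the neuronal tubulin, stood at 2.35, 1.17, -0.38 and -1.92, a difference of -0.35: it was lower in neurons than in stem cells in both lineages and by a like amount. Gap43, a growth cone protein, lay at 1.19 and Sox11, a factor of newborn neurons, at 0.20. The list median was just above 0 after normexp correction, but stayed below that of all genes in every setting run. Settings that shift all genes by the same amount could not change that side.

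The labelled cell type was checked against such markers. For the mature neuron list the summed signal of the 35 genes present on the array had log2 levels of 7.97, 7.38, 5.51 and 4.90, and for the neuroblast list (17 genes) 7.34, 7.12, 5.20 and 5.32, so both arrays labelled neurons lay below both stem cell arrays. The summed signal of pericyte, fibroblast and smooth muscle genes (19 present) was 5.55, 5.11, 9.34 and 9.67, with 8, 8, 19 and 19 genes well above background, and that of astrocyte genes (24 present) was 9.43, 8.66, 9.96 and 9.99. Gfap, the astrocyte filament, was not well above background on either stem cell array and was so on both neuron arrays. These summed levels moved with the labelled state in both lineages. Their part in the difference of changes was not tested.

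The 3 lower genes of the mature neuron list differed in shape. Mapt, the gene of tau, stood at 5.33, 4.91, 1.71 and -1.53, a difference of -2.82, with OB Neu the lowest array. Add2, a cytoskeletal adducin, had the same course and a difference of -2.17, which was -0.37 after normexp correction. Map2, a dendritic microtubule protein, stood instead at -3.24, -1.0, -2.57 and -2.35, a difference of -2.01, and OB NSC was the high array. It was -1.17 after normexp correction, -1.84 after quantile normalization and -1.43 as a mean over its 2 probes.

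In 3 AMPA receptor subunits the source difference likewise lay in the stem cells. Gria2 stood at -3.64, -1.22, -2.80 and -3.24, a difference of -2.85. Gria3 stood at -3.81, -1.41, -0.40 and -0.73, a difference of -2.73, and Gria4 at -0.50, 2.02, -1.03 and -0.84, a difference of -2.32. In all 3 OB NSC lay more than 2 log2 units above HPC NSC, while the neuron arrays lay close together. Gria2 and Gria3 were above -2 after normexp correction, and Gria4 after averaging its 2 probes. Grik2, a kainate receptor subunit, stood at -4.56, -4.73, -5.06 and -2.63, a difference of 2.60 that was 1.72 after normexp correction. Of the glutamate list 8 of 25 genes were measured, with a median of -0.56, 3 at -2 or less and 1 at 2 or more, and of the mature neuron list 23 of 39, with a median of -0.41, 3 at -2 or less and 0 at 2 or more. Syn1, a synaptic vesicle protein, lay at 0.58, Nefm, a neurofilament, at 1.17 and Snap25, of the vesicle fusion machinery, at -0.89.

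Among adhesion and guidance molecules the contactin Cntn1 stood at 3.66, 3.93, 0.66 and -2.59, a difference of -3.52, and Opcml at -3.66, -1.73, -2.80 and -5.56, a difference of -4.69. Alcam, an adhesion molecule of growing axons, stood at -2.45, -0.15, 1.07 and 0.29, a difference of -3.08. Sema3a, a repellent of axons, reached -2.15 and Unc5c, a netrin receptor, -2.12. After normexp correction they lay at -1.43 and -1.9, and Sema3a at -1.99 after quantile normalization. The exceptions were L1cam and Slit3, a ligand of Robo receptors, at -3.74, -3.98, -0.22 and 2.28 with a difference of 2.74. Of this list 16 of 52 genes were measured, with a median of -0.84, 5 at -2 or less and 2 at 2 or more. Reln, the gene of reelin, which positions migrating neurons, stood at -1.42, -0.94, -0.47 and 2.44, a difference of 2.43.

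Genes of BMP and TGF-beta signalling (20 of 40 measured) had a median of -0.34, with 8 at -1 or less, 3 at 1 or more, 1 at -2 or less and 0 at 2 or more. The ligands Bmp4, Tgfb2 and Bmp2 lay at -1.87, -1.91 and -1.21. The BMP targets Id4, Id2 and Id1, inhibitors of neural differentiation factors, lay at -2.15, -1.26 and -1.0, while Id3 lay at -0.18. The receptors Tgfbr2 and Tgfbr3 went the other way, at 1.5 and 1.41. Cdkn1c, the cell cycle inhibitor p57 and itself an imprinted gene, stood at 1.54, 1.56, 4.52 and 7.32, a difference of 2.78, and all 4 of its probes gave between 2.78 and 3.04. Dlk1, another imprinted gene, reached 2.48 at low signals, and 1.83 after normexp correction.

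Ribosomal and cell cycle genes lay close to the median of all genes. The 37 ribosomal protein genes measured had a median of 0.36 and ranged from -0.09 to 0.76, with 0 past 1 in either direction. The 15 measured genes of the cell cycle and DNA replication had a median of 0.35. The 23 cholesterol synthesis genes had a higher median of 0.73, with 17 above the median of all genes, 8 at 1 or more and 0 at 2 or more, among them Ebp, a sterol isomerase, at 1.65 and Fdps, which makes farnesyl diphosphate, at 1.20. The 25 genes of the respiratory chain had a median of 0.70, with 20 above the median of all genes. Across 36 lists 20 medians lay above that of all genes and 16 below. This side was the same in every setting run for 24 lists. Median scaling, both spike-in scalings and centring shift all genes by the same amount and could not change this side. Nor could the deposited value table, which holds the same values. Of the lists described here, the pericyte, astrocyte, hypoxia, ribosomal, cell cycle and GABA and dopamine neuron lists changed side in at least 1 setting. So did the glutamate list with no filter on dim probes.

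**Figure D3:**
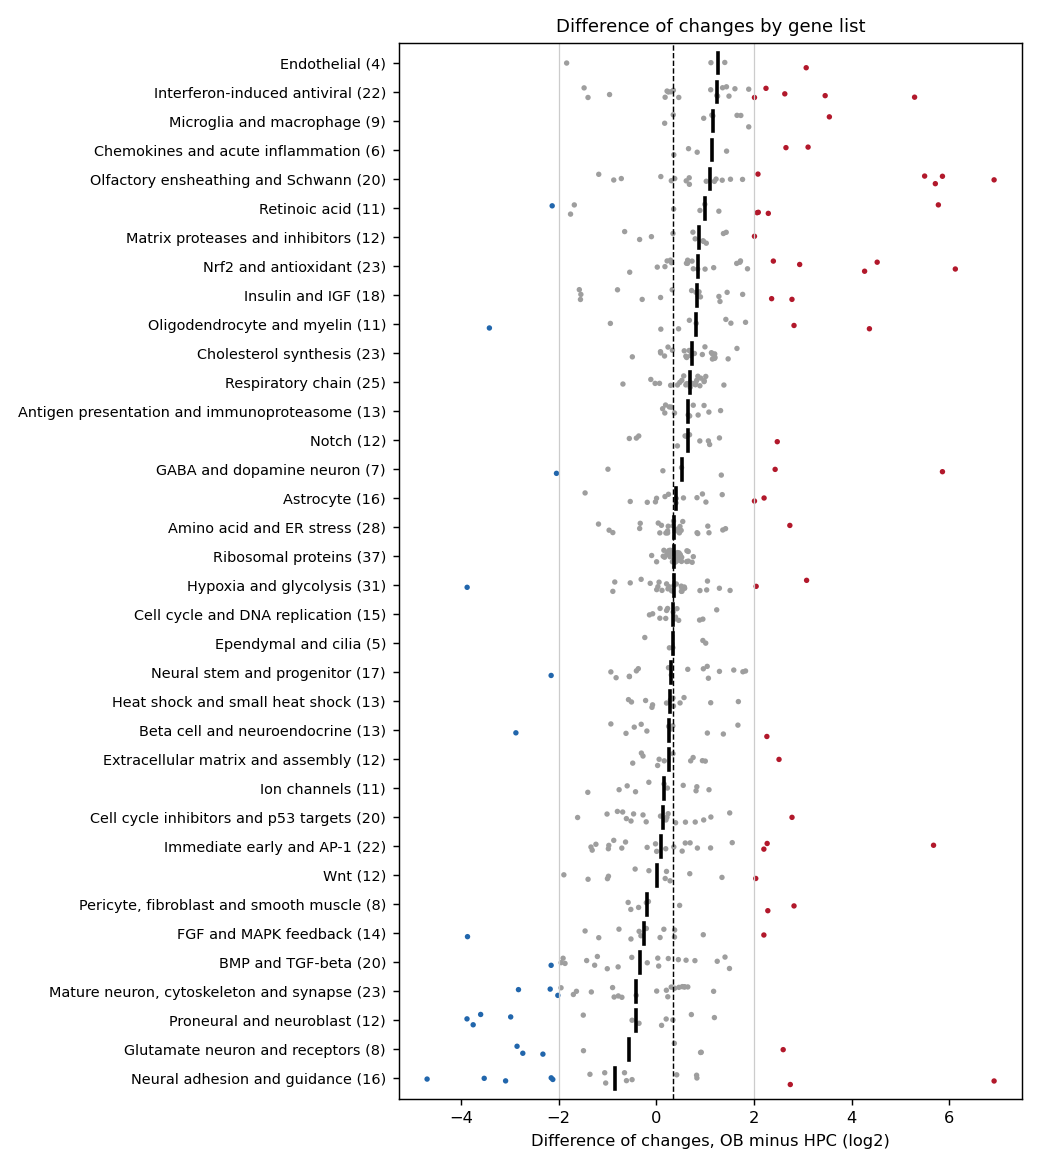
Difference of changes (log2) of each measured member of 36 gene lists, 1 point per gene and jittered vertically, with the number measured in brackets; red points are at 2 or more, blue points at -2 or less, black bars are list medians and the dashed line is the median of all 5495 genes, 0.34. The interferon, ensheathing and Nrf2 lists lie to the right of the dashed line with long right tails, and the adhesion, glutamate and neuroblast lists to its left.

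Genes whose 2 changes had opposite signs, each of 1 log2 unit or more, numbered 11 of 5495 (0.2%). In 6 the level was higher in neurons in the olfactory bulb lineage and lower in the hippocampal lineage: Atf3, Ndrg1, Or2d2, Ehhadh, Tmod1 and Comp. In 5 it was the reverse: Cyp24a1, Cnmd, Ocln, Ntrk3 and Matr3. Ntrk3, the receptor TrkC for neurotrophin-3, stood at 2.80, 4.14, 3.85 and 1.71, a difference of -3.48. Matr3, a nuclear matrix protein, stood at 3.13, 5.25, 4.26 and 4.07, a difference of -2.31, and OB NSC was its high array. Tmod1, which caps actin filaments, stood at -0.39, -1.63, -2.12 and -0.58, a difference of 2.78.

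Probes that could not be named behaved otherwise than the named ones. Of all 22990 probes 362 (1.57%) were at 2 or more and 663 (2.88%) at -2 or less, the reverse order of the gene counts. Among 6882 probes with a gene name, 2.43% were higher and 1.51% lower, and among 16108 that were not named 1.21% were higher and 3.47% lower. The shape differed too: of the 559 unnamed lower probes 350 (62.6%) had a source difference of 1 or more in stem cells only, against 31 of 104 (29.8%) named lower probes. Clusters of expressed sequence tags (1710 probes) had 9.01% lower and 1.17% higher, with a median difference of changes of -0.35. Their median source difference was 0.29 in stem cells, where curated RefSeq probes (7086) had -0.41. The classes also differed in brightness: the median level was -1.14 for tag clusters and 0.59 for curated RefSeq probes. When probes were split into 5 equal groups by brightness, the share of lower probes was 1.76%, 4.63%, 4.2%, 2.87% and 0.957% from the dimmest to the brightest, with no steady trend. Other GenBank records and tags (5149 probes) were dimmer than the tag clusters, at a median level of -2.17, and had 3.77% lower. The part of brightness in the difference between classes was not tested.

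**Figure D4:**
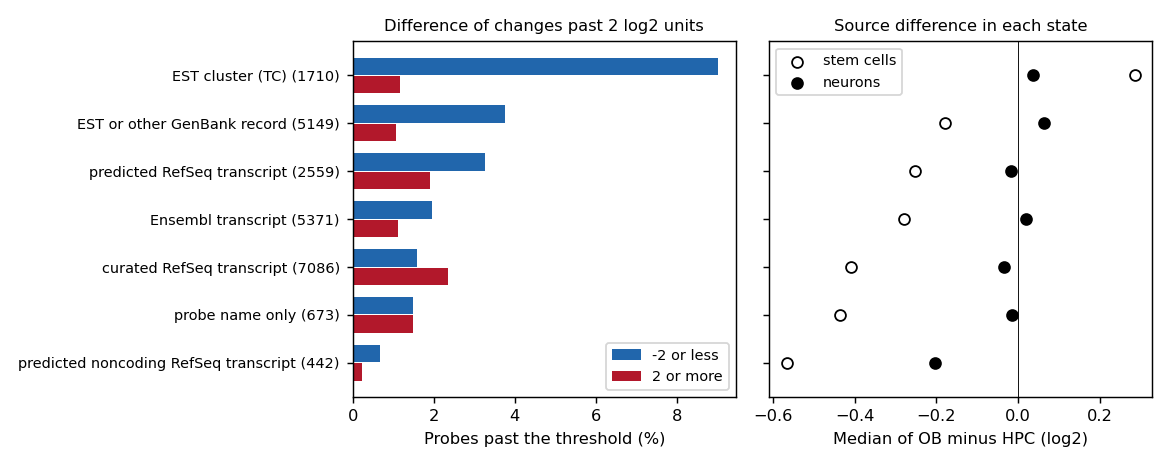
Left, the percentage of probes with a difference of changes of 2 or more (red) or -2 or less (blue) by the kind of record the probe was designed on, with the number of probes in brackets; right, the median source difference (olfactory bulb minus hippocampus, log2) in stem cells (open) and neurons (filled). Expressed sequence tag clusters have 9.01% of probes at -2 or less and are the one class whose stem cell median lies above 0, at 0.29.

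Genes that failed the background filter hold some further cases. Of the 3432 named genes outside it 1815 were dim on all 4 arrays, and for 363 a bound on the difference could be given by setting each dim array at the detection limit. In 37 of these the bound was 2 or more and in 27 it was -2 or less.

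**Figure D5:**
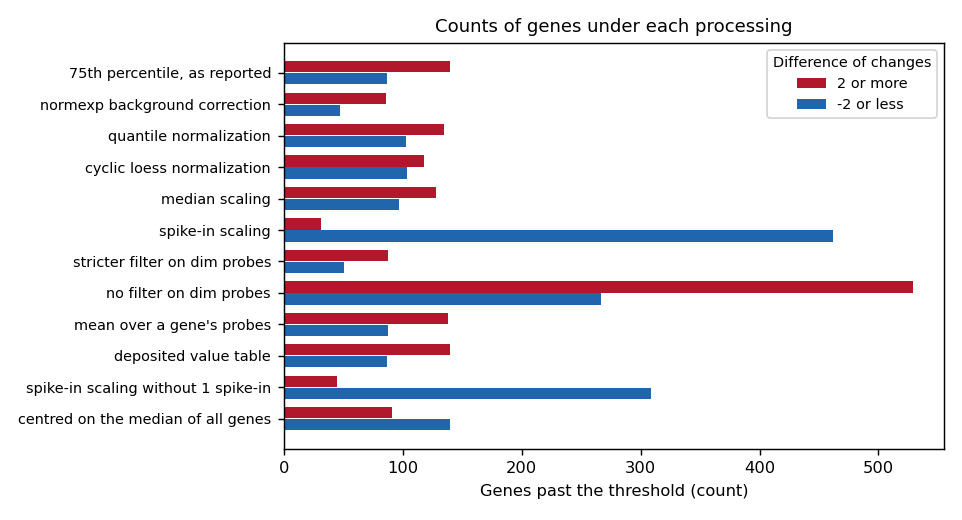
Number of genes with a difference of changes of 2 or more (red) and of -2 or less (blue) under each processing, including those tried after the data were seen (spike-in scaling without 1 spike-in, and centring on the median of all genes). The counts are 140 and 87 as reported, 31 and 462 after spike-in scaling and 91 and 140 after centring.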

How the data were processed

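Gene expression was measured on 4 one-colour Agilent arrays. The scanner output deposited for each array gives spot intensity on a linear scale. Agilent Feature Extraction 10.5.1.1 subtracted background and removed spatial trends (version per the submitters' processing notes, steps per the file headers), and no scaling between arrays is recorded. The authors' value table holds the same intensity values (largest difference 0). Per the file headers, probes were designed on rn4.

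Here log2 of the processed signal minus each array's 75th percentile over non-control probes was used. Of 41012 such probes 254 with an outlier flag were left out; 0 spots were saturated. Accessions matched 1 symbol of the RefSeq table (GRCr8, names only) for 10783 probes, several for 0 and none for 29975. The probe with the highest mean stood for a gene. With 1 array per group no test exists. The calculation was tested on simulated data. Alternatives were normexp (offset 50, on median spot signals, since no mean signal column was at hand), quantile and cyclic loess normalization (limma 3.58.1, R 4.3.3), median and spike-in scaling, a stricter filter (4 times the lowest signal well above background), no filter, and the mean over probes. Python 3.11.15 with pandas 2.3.3 and numpy 2.4.6 was used.

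The members, the 36 gene lists and the rule for named genes were chosen with earlier results of these data known. The rule took the 20 leading genes per direction, up to 10 per direction with opposite changes, up to 6 members per list and every list member past 2, and 20 genes of interest, of which 2 were not measured on all 4 arrays. Further list members are named as examples after their values were seen. For 38 of 52 genes looked for, a promoter entry was found. Genes with a near-identical copy, such as Ins1 and Ins2, Oas1a and Oas1i or Gsta1, are uncertain. A few genes taken by this rule are left out of the text.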

Additional observations from a re-analysis of the deposited data

Results flagged for a closer look

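In 11 genes the olfactory bulb and hippocampal changes had opposite signs and were each 1 log2 unit or more. These differences were not tested, since each group had 1 array. The difference of changes was 5.68 for Atf3, 3.33 for Or2d2 (an olfactory receptor), 3.08 for Ndrg1, 2.78 for Ehhadh (an enzyme of peroxisomal fatty acid oxidation), 2.78 for Tmod1 and 2.25 for Comp (a cartilage matrix protein). It was -6.35 for Cyp24a1, -4.52 for Cnmd, -4.09 for Ocln, -3.48 for Ntrk3 and -2.31 for Matr3. Or2d2 stood at -3.0, -4.48, -4.82 and -2.97 (HPC NSC, OB NSC, HPC neu, OB Neu), and normexp background correction took its difference to 1.79.

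Among the spiked-in control RNAs, which served only for an alternative scaling, 1 stood apart. The spike-in (+)E1A_r60_n9 had a difference of changes of 4.0 on the scale of the 75th percentile. Its median log2 intensities were 13.69, 13.63, 14.08 and 17.13, so the OB Neu array alone was high, over 32 spots per array. The other 6 bright spike-ins lay between 0.91 and 1.30, with a median of 0.99. Its cause was not tested.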

How the results depend on the processing

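The counts of higher and lower genes were 140 and 87 as reported. They were 86 and 47 after normexp correction, 88 and 51 of 4702 genes under a stricter filter on dim probes, and 529 and 267 of 8927 genes with no filter. Scaling on spike-ins gave 31 and 462. Of 2 alternatives added after seeing the data, spike-in scaling without the spike-in that stood apart gave 45 and 309, and centring on the median of all genes gave 91 and 140. At 1 log2 unit the counts were 758 and 372. The median of all genes, 0.34, was 0.16 after both quantile and cyclic loess normalization (0.158 and 0.165), -0.80 after spike-in scaling, -0.51 without the 1 spike-in, and 0 after centring by construction. Quantile, loess and median scaling, the mean over probes and the deposited value table left both counts within 1.5 times the reported ones. All 87 lower genes stayed lower after cyclic loess, and 45 of them after normexp correction. Median scaling, spike-in scaling and centring lower the difference of every gene by the same amount, so no lower gene could be lost under them. Of the 94 named genes past 2, 45 were past 2 in every setting in which they were measured and 0 changed sign; Rsad2 passed in 3 of 10. No paired analysis was possible because each group has 1 array, and no array could be left out. The 4 arrays set the precision throughout, and signals near background limit the most extreme ones.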
